A study of Mus musculus with 6 samples.

Results

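Immediate early response genes are genes that a cell transcribes within minutes of a stimulus, without first making new protein, and whose transcripts are short-lived. The set described here holds 10 of them, of 24965 genes in the deposited expression table: Fos, Fosb, Jun, Junb and Jund, which encode subunits of the AP-1 transcription factor; Egr1, Atf3 and Nr4a1, which encode transcription factors of other families; Dusp1, which encodes a phosphatase that switches off MAP kinases; and Ier2, which encodes a small nuclear protein. The genes were taken by name through the Ensembl identifiers of the GENCODE M21 annotation, and that rule uses no measured value, although the set was proposed with earlier results of these data known. All 10 genes were found in the table, and 9 of them passed the filter on low values, Jund being the exception.

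The RNA-seq data came from donor cells 6 h after bone marrow transplantation (BMT) into irradiated hosts, with 3 WT and 3 Hemgn-/- libraries. The study describes these cells as hematopoietic stem and progenitor cells (HSPCs). HSPC markers were low, however, and a neutrophil granule gene gave the most abundant transcript, as detailed below. Hemgn encodes hemogen, a nuclear protein of hematopoietic cells. The comparison of Hemgn-/- with WT donor cells asks how loss of this gene alters the transcriptome of cells that have just homed. Donors of both genotypes were CD45.2+ mice on a C57BL/6 background, 8 to 10 weeks old, and gave whole bone marrow. The Hemgn-/- donors carried a germline lesion made with zinc finger nucleases, so that donor cells of every type carried the disrupted gene, whose transcript can still be counted. Recipients of both groups were CD45.1+ mice irradiated with 9 Gy in a split dose. The sample labels describe the sorted cells as CD45.2+, lineage-negative and Sca-1+, whereas the series design adds c-Kit+. No library of cells before transplantation was analysed here, so the values describe a difference between genotypes at 6 h and not an induction over time. Whether the replicates of a group came from separate recipients or from pooled ones is not given for each library, so the p-values measure the spread between these libraries.

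AP-1 is a dimer of a Fos and a Jun protein, and its composition sets which promoters it activates or restrains. Growth factors, cytokines, stress and the handling of cells act through MAP kinases, serum response factor and CREB on genes that already carry a poised promoter, which is why AP-1, Egr and Nr4a genes often move together in blood cells. Products of the same wave, such as Dusp1, then feed back on the kinases. CREB and the ATF proteins bind the sequence TGACGTCA or its shorter form TGACGT, AP-1 binds TGANTCA, and serum response factor binds the CArG box.

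The 250 bases upstream of the RefSeq start (build GRCm38.p6) were read for the 8 of 10 genes that have an entry among the promoter sequences used, which hold none for Egr1 or Ier2. They are shown for Dusp1, whose transcripts rose in Hemgn-/- cells, for Fos, the most abundant transcript of the set, and for Fosb, the gene of the Fos family that rose. Capitals mark every match to TGACGTCA or TGACGT on either strand, TGACGT lying inside TGACGTCA.
Dusp1 (chr17:26508473-26508722, minus strand): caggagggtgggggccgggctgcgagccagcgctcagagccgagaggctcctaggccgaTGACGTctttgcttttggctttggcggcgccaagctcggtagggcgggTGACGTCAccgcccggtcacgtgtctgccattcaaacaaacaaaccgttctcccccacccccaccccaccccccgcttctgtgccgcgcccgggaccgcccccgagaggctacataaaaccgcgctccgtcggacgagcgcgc
Fos (chr12:85473640-85473889, plus strand): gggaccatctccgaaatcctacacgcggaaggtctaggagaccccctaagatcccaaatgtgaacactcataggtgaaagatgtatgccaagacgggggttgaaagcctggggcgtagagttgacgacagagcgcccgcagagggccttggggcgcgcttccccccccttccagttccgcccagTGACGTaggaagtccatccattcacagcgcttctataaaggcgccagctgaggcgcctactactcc
Fosb (chr7:19310046-19310295, minus strand): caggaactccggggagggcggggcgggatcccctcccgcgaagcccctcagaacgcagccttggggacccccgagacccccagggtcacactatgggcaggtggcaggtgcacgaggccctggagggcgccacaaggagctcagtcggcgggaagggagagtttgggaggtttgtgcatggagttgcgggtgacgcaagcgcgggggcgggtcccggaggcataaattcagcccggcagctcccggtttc
TGACGTCA was present in 1 of the 8 windows, that of Dusp1, at 143 to 136 bases before the start, and in 1.55% of 32851 windows of the same length across the genome's genes. TGACGT was present in 3 of 8 windows, against 6.47% of all windows. Apart from the longer site of Dusp1, these matches lay 191 to 186 bases before the start of Dusp1, 66 to 61 bases before that of Fos and 8 to 3 bases before that of Atf3. TGANTCA was found in 0 of 8 windows against 6.75% of all windows, and the CArG box in 0 of 8 against 1.47%. A match is a description of the letters, and the Fosb window holds none of these. Sites further than 250 bases upstream, and those of Egr1 or Ier2, were not searched, so a 0 does not show that the genes lack such sites. The GENCODE models of Dusp1, Atf3 and Nr4a1 extend far upstream of the RefSeq starts used here, and that of Jund begins downstream of its RefSeq start. The model of Fosb begins slightly upstream of its RefSeq start, and that of Junb slightly downstream. For all of these genes the window is not the sequence directly before the GENCODE start.

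Immediate early transcripts were abundant in both genotypes. FPKM (fragments per kilobase, scaled for sequencing depth) is a level per length, so genes can be set beside each other on it. Fos ranked 12th of all genes by mean FPKM in WT and 10th in Hemgn-/- libraries. In WT libraries the mean levels ran from Fos (1831 FPKM) through Junb (707), Dusp1 (696), Ier2 (597), Jun (199), Egr1 (133), Nr4a1 (41.6), Fosb (40.0) and Atf3 (29.3) to Jund (0.556). Junb and Dusp1 did not differ there beyond their spread, nor did Nr4a1 and Fosb. In Hemgn-/- libraries the means of Dusp1 (956 FPKM) and Junb (864) again did not differ beyond their spread, nor did those of Egr1 (243) and Jun (235). The 10 genes together made up 1.12%, 1.16% and 1.16% of the FPKM total in WT replicates 1 to 3 and 1.56%, 1.38% and 1.47% in Hemgn-/- replicates 1 to 3, with no overlap between the groups. Their summed FPKM was 4143 to 4366 in WT and 4951 to 5349 in Hemgn-/- libraries. The share also depends on the other genes in the total, of which 10 neutrophil markers made up 20.6% to 22.0% in WT and 14.8% to 15.8% in Hemgn-/- libraries.

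Of the 9 genes tested, 4 were significantly higher in Hemgn-/- than in WT donor cells: Egr1, Fosb, Dusp1 and Junb. The test was limma on log2(FPKM + 1) across 13739 genes, with Benjamini-Hochberg adjusted p under 0.05, and by it 6.46% of all genes tested were called, 4.37% as higher and 2.09% as lower. None of the 9 (0) was called lower, also at an unadjusted p under 0.05 (0) and with limma's voom on recovered fragments (0). Levels of 8 of the 9 genes did not overlap between the groups, all higher in Hemgn-/-, where 27.4% of all genes tested were non-overlapping, 19.2% in that direction and 8.18% in the other. Ier2 was the 1 gene with overlapping groups. The median log2 difference of the 9 genes was 0.29, against 0.087 over all genes tested. In bulk RNA, a change in the number of cells of a type and a change in RNA per cell cannot be told apart.

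**Figure D1:**
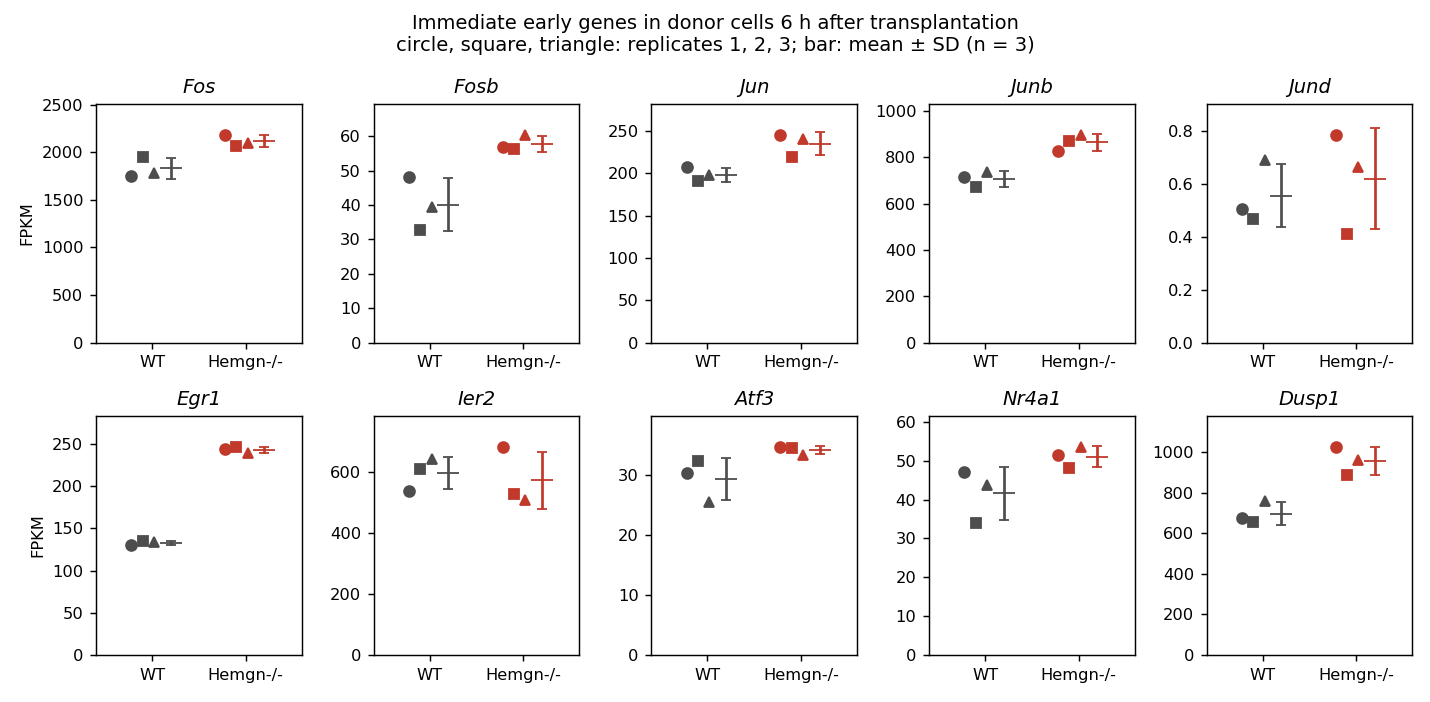
FPKM (vertical axes, each from 0) of the 10 immediate early genes in the 3 WT (grey) and 3 Hemgn-/- (red) libraries, with circles, squares and triangles for replicates 1, 2 and 3 and bars for mean ± SD (n = 3). The 3 Hemgn-/- libraries sit above all WT libraries for every gene but Jund and Ier2, and the gap is widest relative to the spread for Egr1.

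Egr1 (ENSMUSG00000038418; GRCm38 chromosome 18, 34859823 to 34864984, plus strand) encodes a zinc finger transcription factor that responds to MAP kinase signalling. It measured 130, 135 and 134 FPKM in WT replicates 1 to 3 and 245, 246 and 239 FPKM in Hemgn-/- replicates 1 to 3. The lowest Hemgn-/- library was far above the highest WT library, and both groups were tight. The ratio of means was 1.83, from 133 ± 2.66 to 243 ± 3.67 FPKM (SD, n = 3 each). The log2 difference was 0.87 (SE 0.057, 95% interval 0.74 to 1.00, limma adjusted p = 0.000105). Egr1 was called in 15 of 15 alternative settings, with log2 differences from 0.77 to 0.96 and limma adjusted p from 2.2e-06 to 0.0103.

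Dusp1 (ENSMUSG00000024190; GRCm38 chromosome 17, 26505590 to 26562128, minus strand) encodes the dual-specificity phosphatase that inactivates p38, JNK and ERK, and its promoter is the first of those printed above. It measured 674, 655 and 759 FPKM in WT replicates 1 to 3 and 1024, 886 and 960 FPKM in Hemgn-/- replicates 1 to 3. Every Hemgn-/- library was above every WT library. The mean moved from 696 ± 55.4 to 956 ± 69.1 FPKM (SD, n = 3 each), a ratio of 1.37. The log2 difference was 0.46 (SE 0.078, 95% interval 0.28 to 0.64, limma adjusted p = 0.0112). The call was lost when WT replicate 1 or Hemgn-/- replicate 3 was left out, and it held in 11 of 15 alternative settings, with limma adjusted p from 0.0014 to 0.0895. The lowest of these came from voom, although whole fragments were not recovered for Dusp1.

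Among the Fos family, Fos itself (ENSMUSG00000021250; GRCm38 chromosome 12, 85473890 to 85477273, plus strand) measured 1753, 1955 and 1786 FPKM in WT replicates 1 to 3 and 2183, 2062 and 2099 FPKM in Hemgn-/- replicates 1 to 3. The groups did not overlap, WT replicate 2 lying nearest to the Hemgn-/- libraries. The log2 difference was 0.21 (SE 0.059, 95% interval 0.074 to 0.34) and did not pass the threshold (limma adjusted p = 0.0782). Fos passed in 3 of 15 alternative settings, which were voom (limma adjusted p = 0.0182), rescaling to an equal FPKM total (0.0244) and leaving out WT replicate 2 (0.0388). Fosb (ENSMUSG00000003545; GRCm38 chromosome 7, 19302696 to 19310051, minus strand) encodes a Fos protein that also has a shorter form lacking the activation domain. It measured 48.1, 32.7 and 39.4 FPKM in WT replicates 1 to 3 and 56.8, 56.2 and 60.4 FPKM in Hemgn-/- replicates 1 to 3. Fosb was scattered among WT libraries and close together among Hemgn-/- libraries, with no overlap. Its mean rose from 40.0 ± 7.72 to 57.8 ± 2.30 FPKM (SD, n = 3 each), a log2 difference of 0.53 (SE 0.13, 95% interval 0.24 to 0.83, limma adjusted p = 0.0447). The Fosb call held in 6 of 15 alternative settings (limma adjusted p from 0.0119 to 0.155), and of the 6 that leave out a library only the one without WT replicate 1 kept it.

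Among the Jun family, Junb (ENSMUSG00000052837; GRCm38 chromosome 8, 84974484 to 84978718, minus strand), which encodes an AP-1 subunit that can restrain Jun and limits the growth of myeloid progenitors, measured 714, 670 and 738 FPKM in WT replicates 1 to 3. The same gene measured 826, 869 and 897 FPKM in Hemgn-/- replicates 1 to 3. All Hemgn-/- libraries were higher, and the log2 difference was 0.29 (SE 0.061, 95% interval 0.15 to 0.43, limma adjusted p = 0.0274). That call held in 6 of 15 alternative settings (limma adjusted p from 0.00725 to 0.176), and among those that leave out a library it held only without WT replicate 3 or without Hemgn-/- replicate 1. Jun (ENSMUSG00000052684; GRCm38 chromosome 4, 95049034 to 95052222, minus strand), the principal partner of Fos, measured 207, 191 and 198 FPKM in WT replicates 1 to 3 and 246, 220 and 240 FPKM in Hemgn-/- replicates 1 to 3. The groups did not overlap, but the log2 difference of 0.24 (SE 0.068, 95% interval 0.087 to 0.40) missed the threshold (limma adjusted p = 0.0770). Jun passed in 2 of 15 alternative settings, rescaling to an equal FPKM total and voom, with limma adjusted p of 0.0313 and 0.0414. Counting is not stated to use strand, and 232 exon bases of Jun (7.28%) overlap the antisense gene Junos, while 173 exon bases of Junb (7.52%) overlap Prdx2 on the opposite strand. Junos was at most 1.45 FPKM and Prdx2 at most 20.4 FPKM in any library, both far below the Jun genes.

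Jund (ENSMUSG00000071076; GRCm38 chromosome 8, 70698949 to 70700616, plus strand), a Jun gene that most cells transcribe steadily, was the exception in level. It measured 0.507, 0.469 and 0.692 FPKM in WT replicates 1 to 3 and 0.786, 0.412 and 0.664 FPKM in Hemgn-/- replicates 1 to 3, equal to 18 to 36 recovered fragments a library. The groups overlapped, and the gene stayed below the filter of 1 FPKM and was not tested. Of its 1668 exon bases, 877 (52.6%) overlap the antisense gene Gm11175, which had no row in the table, so its low value is uncertain.

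The remaining genes did not pass the threshold. Ier2 (ENSMUSG00000053560; GRCm38 chromosome 8, 84661331 to 84662852, minus strand) measured 539, 611 and 642 FPKM in WT replicates 1 to 3 and 682, 528 and 510 FPKM in Hemgn-/- replicates 1 to 3. Hemgn-/- replicate 1 was the highest of all 6 libraries and the other Hemgn-/- libraries the lowest. Its log2 difference was -0.07 (SE 0.11, 95% interval -0.33 to 0.20, limma adjusted p = 0.779), and it was 0.02 after rescaling to the same FPKM total and 0.01 without Hemgn-/- replicate 3. Atf3 (ENSMUSG00000026628; GRCm38 chromosome 1, 191170296 to 191218039, minus strand), which encodes a stress-responsive repressor of the ATF family, measured 30.3, 32.2 and 25.4 FPKM in WT replicates 1 to 3 and 34.6, 34.4 and 33.3 FPKM in Hemgn-/- replicates 1 to 3. The Atf3 groups were separate but close, with a log2 difference of 0.22 (SE 0.099, 95% interval -0.0085 to 0.44, limma adjusted p = 0.252). Nr4a1 (ENSMUSG00000023034; GRCm38 chromosome 15, 101254269 to 101274795, plus strand), an orphan nuclear receptor that restrains myeloid cell activation, measured 47.2, 34.0 and 43.7 FPKM in WT replicates 1 to 3 and 51.5, 48.2 and 53.5 FPKM in Hemgn-/- replicates 1 to 3. WT replicate 2 was apart from the other WT libraries, and the log2 difference was 0.30 (SE 0.12, 95% interval 0.026 to 0.57, limma adjusted p = 0.194).

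The number of these genes called higher was sensitive to single libraries, falling from 4 to 2 without WT replicate 1, to 2 without Hemgn-/- replicate 2 and to 1 without Hemgn-/- replicate 3. Scaling also shifted the calls over all genes, from 600 higher and 287 lower to 1059 and 238 when each library was rescaled to an equal FPKM total, to 368 and 346 with quantile normalization, and to 340 and 386 with median-ratio scaling. The number of immediate early genes called higher was then 6, 2 and 2, and their median log2 difference 0.38, 0.19 and 0.19. Over all settings that median stayed 0.17 to 0.26 above the median of all genes tested.

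**Figure D2:**
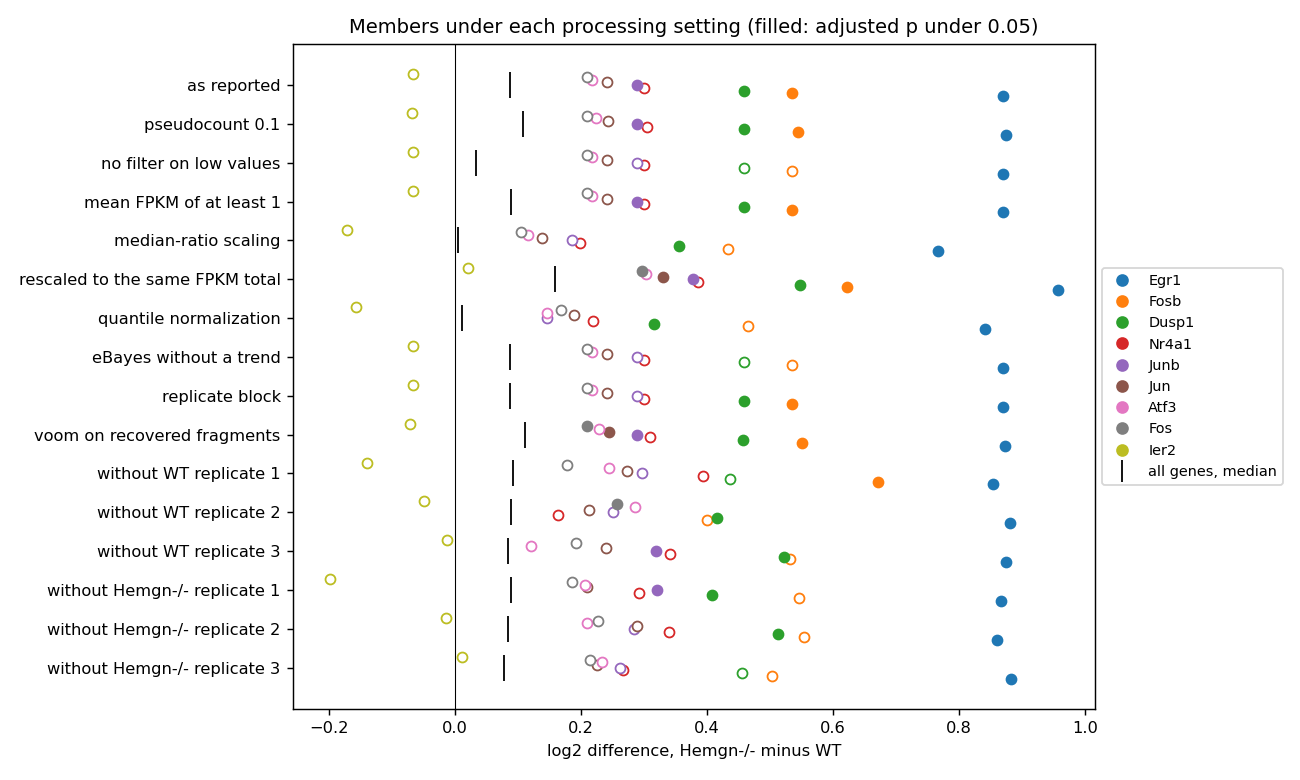
Log2 difference of the 9 tested genes, Hemgn-/- minus WT (horizontal axis), under the reported setting and 15 alternatives (rows), with filled points for adjusted p under 0.05 and a black tick for the median of all genes tested. Egr1 is filled in every row, between 0.77 and 0.96, while Ier2 lies on both sides of 0.

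To set them against each other within a library, each level was divided by that of Fos in the same library, which removes the scaling between libraries. The Egr1 to Fos ratio was 0.0727 ± 0.0032 in WT and 0.115 ± 0.0038 in Hemgn-/- libraries (SD, n = 3 each, two-sided exact permutation p = 0.1). The Dusp1 to Fos ratio was 0.382 ± 0.045 in WT and 0.452 ± 0.020 in Hemgn-/- libraries (SD, n = 3 each, two-sided exact permutation p = 0.1). Neither ratio overlapped between the groups, and 0.1 is the smallest p that 3 against 3 libraries allow. The other 6 ratios overlapped between groups, with exact permutation p from 0.3 to 0.9. After adjustment over the 8 ratios the smallest exact permutation p was 0.4. With 0.1 as the smallest possible p, no ratio could pass 0.05 whatever its values, so this test cannot decide whether a ratio differed.

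Spread between replicates differed among the genes. The coefficient of variation within a group ran from 1.51% for Egr1 in Hemgn-/- to 19.3% for Fosb in WT libraries, with a median of 5.52%. WT replicate 2 was the lowest WT library for 5 of the 9 genes tested (Fosb, Jun, Junb, Nr4a1 and Dusp1) and the highest for 3 (Fos, Egr1 and Atf3). Hemgn-/- replicate 1 was the highest of its group for 5 genes and Hemgn-/- replicate 2 the lowest for 5, so no library was lowest or highest of its group throughout.

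Beyond the 10 genes, a list of 43 other immediate early genes was examined, of which 42 were in the table and 40 were tested. Of these 40, 5 were called higher and 3 lower in Hemgn-/- cells, with a median log2 difference of 0.051, below the 0.087 of all genes. Levels did not overlap between groups for 13 of the 40 that were higher and 7 that were lower. Over all genes tested, these shares were 19.2% and 8.18%. Those called higher were Egr2 (0.55), a relative of Egr1; Zfp36 (0.60), which encodes a protein that destabilizes cytokine mRNA; Gadd45b (0.55), a stress-response gene; Myc (0.48); and Csrnp1 (0.32), given as log2 differences with limma adjusted p from 0.00236 to 0.0415. Zfp36 was the most abundant of them, with a mean that went from 555 ± 44.4 to 838 ± 31.6 FPKM (SD, n = 3 each). The 3 called lower were Ccn1, Sik1 and Fosl1. Ccn1, which encodes a secreted matrix protein, measured 19.4, 17.4 and 15.4 FPKM in WT replicates 1 to 3 and 4.46, 3.39 and 4.28 FPKM in Hemgn-/- replicates 1 to 3. Its log2 difference of -1.87 (SE 0.13, limma adjusted p = 0.000131) was opposite in direction to that of Egr1. Sik1, which encodes a kinase that restrains CREB coactivators, differed by -0.76 (limma adjusted p = 0.00841).

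**Figure D3:**
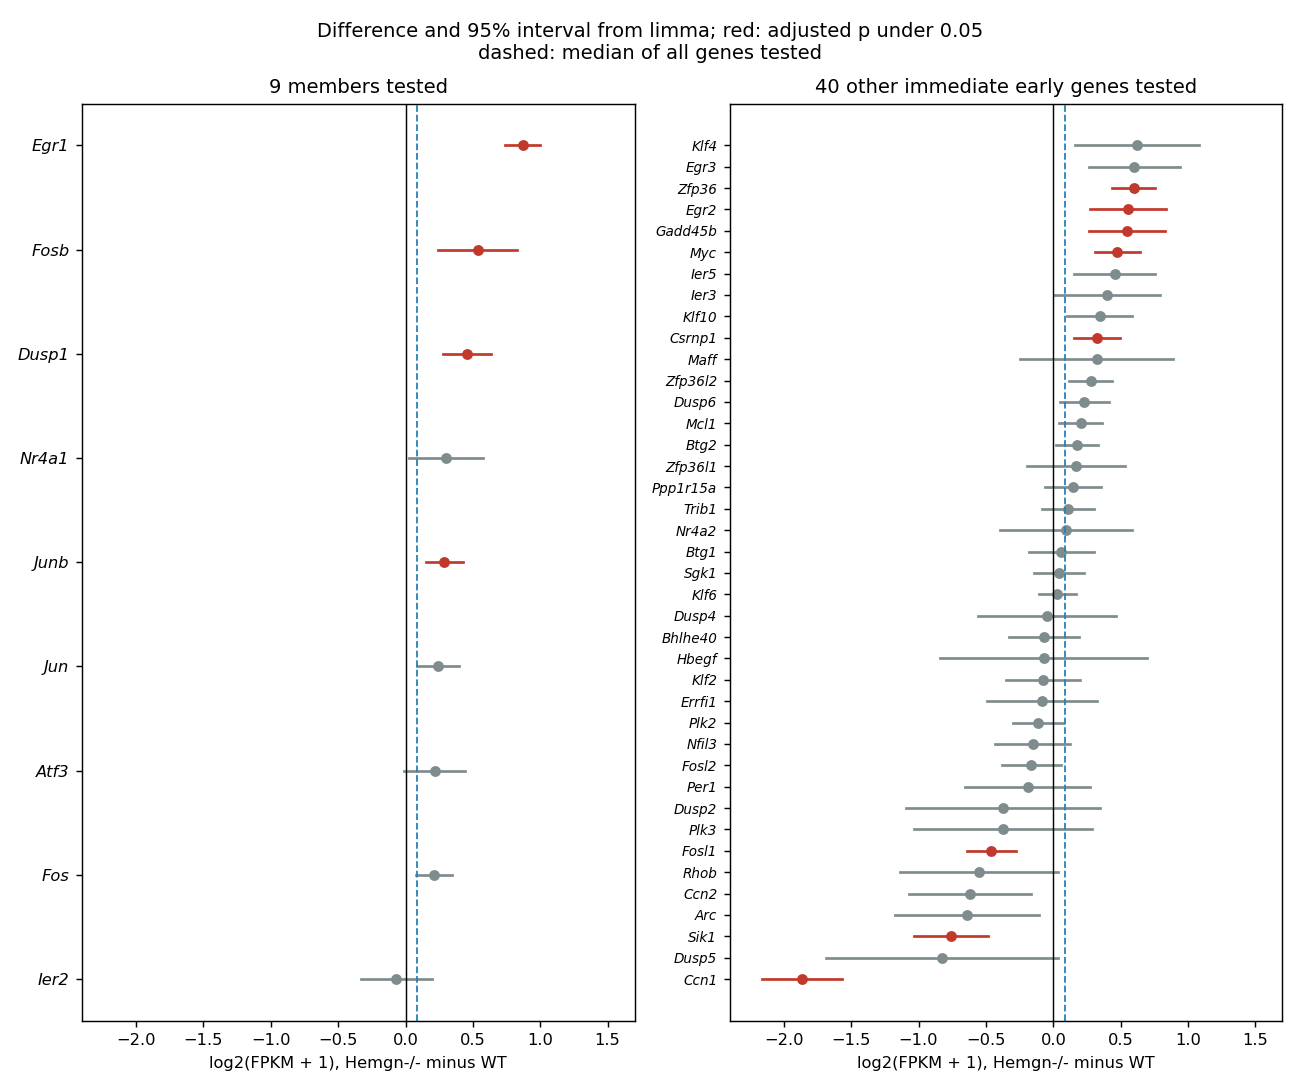
Log2(FPKM + 1) difference, Hemgn-/- minus WT (horizontal axes), with its 95% interval from limma for the 9 genes tested (left) and 40 other immediate early genes tested (right), red where the adjusted p is under 0.05 and with a dashed line at the median of all genes, 0.087. On the left 8 of 9 points lie right of 0, and on the right the points run from -1.87 (Ccn1) to beyond 0.60.

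Relatives of the 10 genes did not all share their direction. In the Fos family, Fosl1, a Fos protein without the activation domain, measured 47.9, 48.9 and 45.2 FPKM in WT replicates 1 to 3 and 32.4, 33.6 and 36.6 FPKM in Hemgn-/- replicates 1 to 3. All WT libraries were higher, a log2 difference of -0.46 (SE 0.080, limma adjusted p = 0.0125), whereas Fosl2 differed by -0.16 (limma adjusted p = 0.374). Fosl2 was likewise lower in every Hemgn-/- library than in any WT library. Egr2 was 5.34 ± 0.444 FPKM in WT and 8.33 ± 1.06 FPKM in Hemgn-/- libraries (SD, n = 3 each, limma adjusted p = 0.0340). Egr3 ran from 2.15 to 3.01 FPKM in WT and from 3.95 to 4.73 FPKM in Hemgn-/- libraries, without overlap, and just missed the threshold (log2 difference 0.60, limma adjusted p = 0.0502). All 3 Egr genes measured were higher in every Hemgn-/- library than in any WT library, and Egr4 had no row in the table.

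Among the genes that share a name with Ier2, Ier5 did not overlap between groups (log2 difference 0.46, limma adjusted p = 0.0854), and Ier3 did (0.40, limma adjusted p = 0.231). Ier5l, at most 0.0941 FPKM, was not tested. Nr4a2 overlapped between groups (0.09, limma adjusted p = 0.836), and Nr4a3, at most 0.780 FPKM, was not tested. Among the relatives of Dusp1, Dusp6 was 45.5 ± 2.60 FPKM in WT and 53.5 ± 2.99 FPKM in Hemgn-/- libraries (SD, n = 3 each, limma adjusted p = 0.141). Dusp2, Dusp4 and Dusp5 had negative log2 differences of -0.37, -0.05 and -0.82, with limma adjusted p of 0.544, 0.930 and 0.255. Dusp5 was lower in every Hemgn-/- library than in any WT library, while Dusp2 and Dusp4 overlapped between groups. Dusp7, named after its values were seen, ran from 2.89 to 5.64 FPKM in WT and from 7.27 to 10.6 FPKM in Hemgn-/- libraries, without overlap, and just missed the threshold (log2 difference 0.86, limma adjusted p = 0.0502). Dusp10 and Dusp16 overlapped between groups, with log2 differences of -0.23 and 0.21 (limma adjusted p = 0.423 and 0.554), and Dusp8 was below the filter. WT replicate 2 stood apart for Dusp5, at 25.9 FPKM against 7.43 and 8.24 FPKM in the other WT libraries, and for Dusp2, at 70.1 against 29.8 and 32.8 FPKM. The same library was instead the lowest of its group for Fosb, Jun, Junb, Nr4a1 and Dusp1, without standing apart for each of them.

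**Figure D4:**
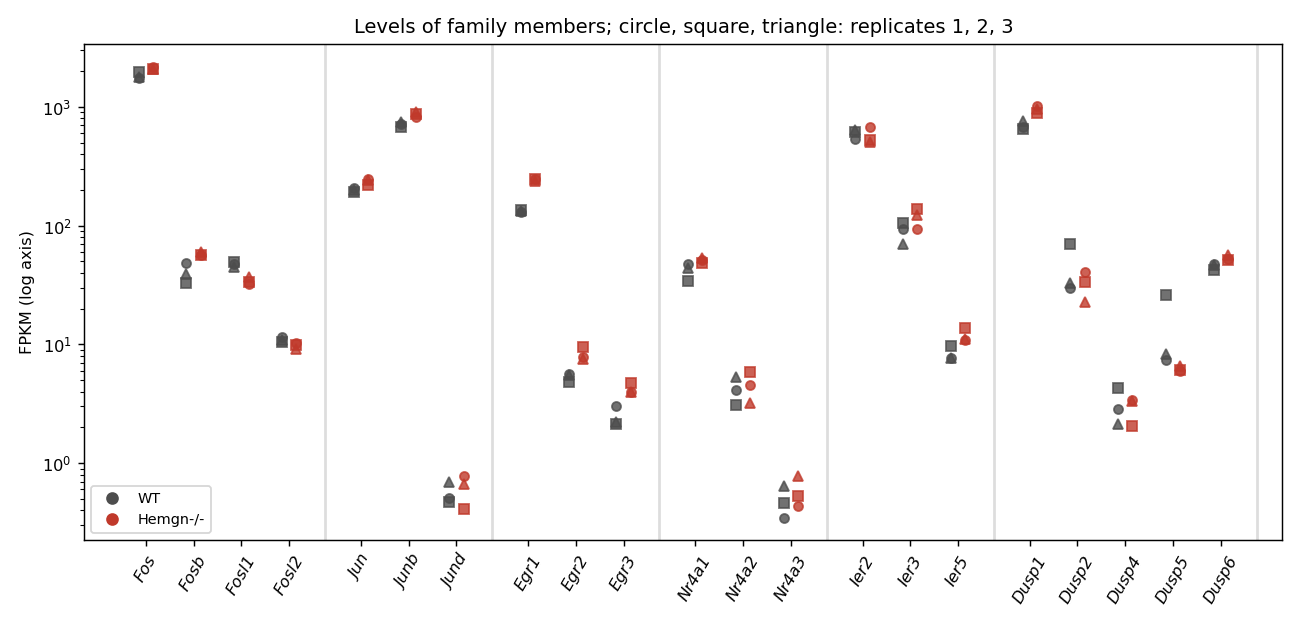
FPKM on a log axis of the Fos, Jun, Egr, Nr4a, Ier and Dusp genes in 3 WT (grey) and 3 Hemgn-/- (red) libraries, with circles, squares and triangles for replicates 1, 2 and 3. Fos, Junb, Ier2 and Dusp1 stand far above the other genes of the same name, Jund and Nr4a3 lie below 1 FPKM, and WT replicate 2 is apart for Dusp2 and Dusp5.

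Genes for the machinery around these genes are read against the 6.46% of all genes tested that were called in either direction. Of 26 kinases and transcription factors that act upstream, 0 were called in either direction by limma, with 4 higher and 1 lower at an unadjusted p under 0.05 and 0 called by voom, and a median log2 difference of 0.0058. Of 11 tested genes for other proteins that pair with or resemble AP-1 subunits, 1 was called lower, which is Fosl1, and 0 were called higher. At an unadjusted p under 0.05 these were 2 lower and 1 higher, and voom called 1 lower and 0 higher. Of 12 tested feedback inhibitors of MAP kinase and Egr signalling, 1 was called higher, Nab1, a corepressor of Egr proteins, which rose from 6.08 ± 0.462 to 8.90 ± 0.672 FPKM (SD, n = 3 each, limma adjusted p = 0.0361). Voom called 2 of these 12 higher, and 3 were higher at an unadjusted p under 0.05. Of 7 tested heat shock genes, which respond to cell stress by another route, 1 was called higher, the mitochondrial chaperone gene Hspd1 (log2 difference 0.40, limma adjusted p = 0.0429), and their median was 0.10. Voom called 1 of these 7 higher, and 2 were higher at an unadjusted p under 0.05. With 0 or 1 gene called in each, these lists are too small to be told from the background share.

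The genes outside all lists whose levels most resembled the mean of the 9 standardized genes over the 6 libraries were Cd53, Irak2, Gbp7, Lilrb4a and BC147527, among 6170 genes with a mean of at least 5 FPKM. Their Pearson coefficients of 0.997 to 0.998 are a description over 6 libraries and are set mostly by the gap between the groups.

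The Hemgn transcript was lower in the libraries of its knockout, where replicates 1 to 3 held 0.755, 0.913 and 1.60 FPKM against 5.64, 2.96 and 4.68 FPKM in WT replicates 1 to 3 (log2 difference -1.37, limma adjusted p = 0.0114). Libraries held 23668015 to 28897360 fragments. Markers of HSPCs were present but low in both groups (Kit 6.58 and 5.68 FPKM in WT and Hemgn-/-, Cd34 8.08 and 11.4), while the neutrophil granule gene Ngp was the most abundant transcript, a gene that is no marker of the labelled cells. None (0) of the 72 markers examined was at 0 in all libraries. Summed over lists, HSPC markers were 41.9 to 48.7 FPKM in WT and 50.04 to 55.8 FPKM in Hemgn-/- libraries (1 of 9 tested called higher), neutrophil markers 76555 to 82451 and 51002 to 56525 FPKM (1 of 10 higher, 3 lower), and erythroid markers 346 to 406 and 57.4 to 76.4 FPKM (3 of 8 lower). Monocyte and macrophage markers were 449 to 516 and 404 to 484 FPKM (3 of 10 higher, 1 lower), B cell markers 1160 to 1221 and 1380 to 1554 FPKM (3 of 7 higher), T and NK cell markers 132 to 142 and 157 to 186 FPKM (3 of 9 higher), and plasmacytoid dendritic cell markers 110 to 122 and 154 to 186 FPKM (3 of 6 higher). Basophil, mast cell and eosinophil markers were 703 to 816 and 552 to 584 FPKM (2 of 6 lower), and endothelial markers 16.1 to 17.2 and 17.3 to 20.8 FPKM. Some sums hide opposite directions. Of the 9 HSPC markers tested, 4 were higher in every Hemgn-/- library and 2, Kit and Myb, were lower in every one. Among monocyte and macrophage markers Csf1r, Adgre1 and Ccr2 were called higher and C1qb lower, while Ly6c2, the most abundant, overlapped between groups. Among erythroid markers Hba-a1 (296 to 17.7 FPKM), Hbb-bt and Alas2 were called lower, and the others tested overlapped. The eosinophil genes Prg2 and Epx were called lower, whereas Cpa3 and Fcer1a were higher in every Hemgn-/- library but not called. Mcpt8 and Prss34 of the same list overlapped between groups, with log2 differences of -0.10 and 0.06. Among neutrophil markers Ngp, Ltf and Camp were called lower and Cxcr2 higher, and the rest overlapped between groups. The part that these cell types play in the differences of the immediate early genes was not tested.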

How the data were processed

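RNA-seq of 3 WT and 3 Hemgn-/- donor cell libraries was analysed from the table of FPKM values per gene that the authors deposited, 1 column per library, with all columns mapped (0 unmapped). The study's methods describe Smart-Seq2 cDNA and paired-end sequencing, while the labels name another kit. The submitters' processing notes name HISAT2 2.1.0, Bowtie2 2.2.3, TopHat2, HTSeq 0.6.0 and GRCm38, with no role or order. The gene annotation is not given in the sources used here. FPKM divides by a length, so levels depend on the gene model used, and the differences do so too through the pseudocount and the fragments that are counted. Symbols, positions and exon lengths came from GENCODE M21, which matched 24921 of 24965 identifiers. Amplified cDNA fragments are not independent molecules.

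Values were taken as log2(FPKM + 1), which understates changes of low genes. The comparison ran limma 3.58.1 under R 4.3.3 (eBayes with a trend, no covariate, two-sided) on the 13739 genes whose FPKM exceeded 1 in any library, and p-values were adjusted by Benjamini-Hochberg over all genes tested. Intervals are at 95%. Whole fragments were recovered from low FPKM steps with the exon lengths (95.7% of 13472 genes with at most 100 fragments, within 0.05 of a whole number in every library, and 8 of the 10 genes of the set). Dusp1 and Nr4a1 were the exceptions in the set, and voom took their rounded values. Replicates differed by more than counting noise. Promoters came from RefSeq. The 10 genes and the lists were chosen with earlier results of these data known. Genes named are these 10, Hemgn, genes of the lists past the threshold, relatives or namesakes of the 10, and the 5 genes of most similar pattern. The values of Dusp2 and Dusp5 that stand apart were named after the values were seen. The same holds for Dusp7, Dusp8, Dusp10, Dusp16, Ier5l, Kit, Myb, Cd34, Ngp, Ly6c2, Cpa3, Fcer1a, Mcpt8, Prss34, Junos, Prdx2 and Gm11175. The method was tested on simulated data. The 15 alternatives were a pseudocount of 0.1, other filters, scalings and variance models, the replicate number as a block, voom, and leaving out each library. Python 3.11.15, numpy 2.4.6, pandas 2.3.3 and matplotlib 3.10.9 were used.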

Additional observations from a re-analysis of the deposited data

How the results depend on the processing

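Immediate early genes of the set called higher, 4 as reported, numbered 1 with no filter on low values, 2 with median-ratio scaling and 2 with quantile normalization. They numbered 1 by eBayes without a trend and 1 to 3 with a library left out. Of the 5 other immediate early genes called higher, the number was 3 with no filter, 2 with median-ratio scaling, 10 after rescaling to the same FPKM total, 2 with quantile normalization, 1 without a trend, and 2 to 3 with a library left out. All genes called higher, 600 as reported, numbered 309 with no filter, 340 with median-ratio scaling, 1059 after rescaling, 368 with quantile normalization, 237 without a trend and 223 to 451 with a library left out. Genes called lower, 287 as reported, numbered 157 with no filter, 153 without a trend and 150 to 237 with a library left out. What caused these changes was not tested, and leaving out a library also leaves fewer libraries in the fit. The log2 difference of Ier2 changed sign to 0.0215 after rescaling and 0.0113 without Hemgn-/- replicate 3, in a range from -0.1983 to 0.0113 with a library left out. The number of genes of the set called lower was 0 in every alternative run, and that of the other immediate early genes was 2 or 3.

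Libraries of WT and Hemgn-/- share replicate numbers, but same-numbered libraries did not deviate together (Pearson r of -0.043, -0.0094 and 0.011 across 13739 genes, which are not independent), so the numbers were not read as pairs. With the replicate number as a block, 410 genes were called higher and 226 lower, 3 of the immediate early genes of the set and 2 of the other immediate early genes were called higher, and Junb had a limma adjusted p of 0.0523.

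At the depth of these libraries Jund rested on 18 to 36 fragments a library and was not tested.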
